A study of Mus musculus with 12 samples.

Results

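Gene expression was compared between untreated glomeruli of mice that lack Dach1 in podocytes and untreated glomeruli of control mice. The comparison takes the 6 RNA-seq libraries of the baseline arm out of 12 in the series. It sets 3 libraries labelled as podocyte-specific DACH1 knockout against 3 labelled as control, and the counts were scaled within these 6. The mice were on a C57BL/6 background and 10 weeks old, were matched for age and received no treatment, and each library came from a different mouse. Glomeruli were isolated after magnetic beads had been perfused through the heart, so the RNA is that of whole glomeruli. The other 6 libraries came from mice of the same 2 genotype labels that had been injected with streptozotocin (STZ), a toxin of insulin-producing cells, at 50 µg per g per day for 5 days, with glomeruli taken 10 days later. They are used here only to look at the baseline genes in other mice. The alleles, the Cre line, the genotype of the controls and the sex of the mice are not given in the labels used here. The titles of the STZ controls carry the letters hetN, and those of the baseline controls carry Ctrl. The question, by the title of the series, is which genes DACH1 controls in podocytes.

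Podocytes are the epithelial cells that wrap the glomerular capillaries. Their foot processes rest on the glomerular basement membrane and are joined by the slit diaphragm, a cell junction that completes the filtration barrier. DACH1 is the mammalian counterpart of Drosophila dachshund, a nuclear protein that binds DNA and acts mainly as a transcriptional repressor. It is part of a network with the EYA (eyes absent) and sine oculis homeobox proteins, and in the adult kidney it is abundant in podocytes.

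The 6 baseline tables listed 13480 genes, with totals of 2.26e+07 to 2.49e+07 counts per library. Xist, the RNA of the inactive X chromosome, had 1053 to 3030.5 counts in 4 libraries and 11.5 and 15 in the other two. Ddx3y, on the Y chromosome, had 3585 and 4211 counts in those last libraries and 127 to 161 in the first 4. By these genes each genotype held 2 female mice and 1 male mouse (control replicate 3 and knockout replicate 3). Replicates are numbered in accession order. The summed level of 6 podocyte markers (Nphs1, Podxl, Synpo, Wt1, Ptpro and Cdkn1c) was 13811 to 18906 CPM (counts scaled to a common library size) in controls and 13265 to 16078 CPM in knockouts, so the podocyte label was borne out in every library. Proximal tubule RNA varied more. The summed level of 24 tubule genes was 3929, 7415 and 6140 CPM in the controls and 2690, 11839 and 29673 CPM in the knockouts. Knockout replicate 3 was thus the library richest in tubule RNA and knockout replicate 1 the poorest. The mean log2 CPM of these genes was 0.69 higher in knockouts (exact two-sided permutation p = 0.5, where 3 against 3 mice can reach no less than 0.1). The difference was 0.03 without knockout replicate 3 and 1.55 without knockout replicate 1.

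Dach1 was lower in all 3 knockouts than in any control. Its level was 162, 106 and 188 CPM in the controls and 47.2, 56.8 and 59.4 CPM in the knockouts. On the log2 scale it stood 1.48 lower, at -1.48 (SE 0.23). Its adjusted p by edgeR was 0.111 and missed the threshold of 0.05 used for a call. It was 0.00516 with the spread estimated over all 12 libraries and 7.02e-07 with DESeq2. Fewer cells of a type and less RNA per cell cannot be told apart in bulk glomerular RNA, and whether the deposited counts cover the deleted part of the gene is not stated. The 4 measured genes within 1000 kb of Dach1 had log2 fold changes of at most 0.25 in size.

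Of the genes that work with DACH1, only Eya4 was called. Eya4 encodes a transcriptional coactivator and phosphatase of the eyes absent family. It was at 16.1, 17.7 and 18.5 CPM in controls and at 49.0, 41.4 and 49.7 CPM in knockouts. Every knockout thus had over 2 times the level of any control, and the log2 fold change was 1.42 (SE 0.11, adjusted p = 0.0147). The other members of the list of dachshund, eyes absent and sine oculis genes that were measured had negative log2 fold changes (5 of 6 with Dach1), among them Eya1 at -0.90 (SE 0.35, adjusted p = 0.694). None of 15 genes of the PTIP complex, a histone H3K4 methyltransferase complex, was called by edgeR or DESeq2 or had an unadjusted p under 0.05 in edgeR, and no member had groups that did not overlap. Paxip1, which encodes PTIP itself, differed by 0.11 on the log2 scale (SE 0.18, adjusted p = 0.916). Nell2, which encodes a secreted EGF-like glycoprotein, was at 395, 147 and 213 CPM in controls and 380, 331 and 264 CPM in knockouts. These ranges overlapped, and its log2 fold change was 0.37 (SE 0.36, adjusted p = 0.842).

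In all, 31 of 13475 genes tested (0.23%) were called at an adjusted p under 0.05. Of these, 23 (0.171% of the genes tested) were higher and 8 (0.0594%) were lower in knockouts. All 31 had groups that did not overlap, as had 11.8% of all genes tested. The changes called were large, and smaller ones were mostly missed in simulated counts. The test called 1.49% of 1.5-fold, 31.3% of 2-fold and 83.3% of 4-fold changes there. At least a 4-fold difference was seen in 19 of the 31, and 1 gene (Mtss1) differed by less than 2-fold. The median log2 fold change of all genes was 0.01, and 52.4% of genes had a positive value. DESeq2 called 222 of 13450 genes (1.65%), 93 higher and 129 lower, which included all 31. No called gene changed direction under the alternative settings in which it was tested (Prm1 was not tested with at least 10 counts asked of every library), whereas the number called varied. Leaving out 1 library gave between 4 and 51 calls. C130060K24Rik, Adamtsl1, Prm1 and Lpcat4 were called whichever library was left out, and Hpgds in 4 of the 6 cases. At the other end, 4 of the 31 were called in none of the 6 cases, Igsf10, Metrnl and Exph5 among them. With the leading number of the sample titles as a block, 10 for control and knockout replicate 1 and 11 for the others, 60 genes were called, 33 higher and 27 lower. With sex as a covariate 10 of the 31 were still called. They were C130060K24Rik, Prm1, Adamtsl1, Hpgds, Lpcat4, Aldh1a1, Parm1, Mgat5b, Top1mt and Acpp. It follows from the non-overlapping groups of the 31 that the 23 were above and the 8 below all controls in every knockout. That holds for knockout replicate 1, the library of lowest tubule level, and is no separate evidence.

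**Figure D1:**
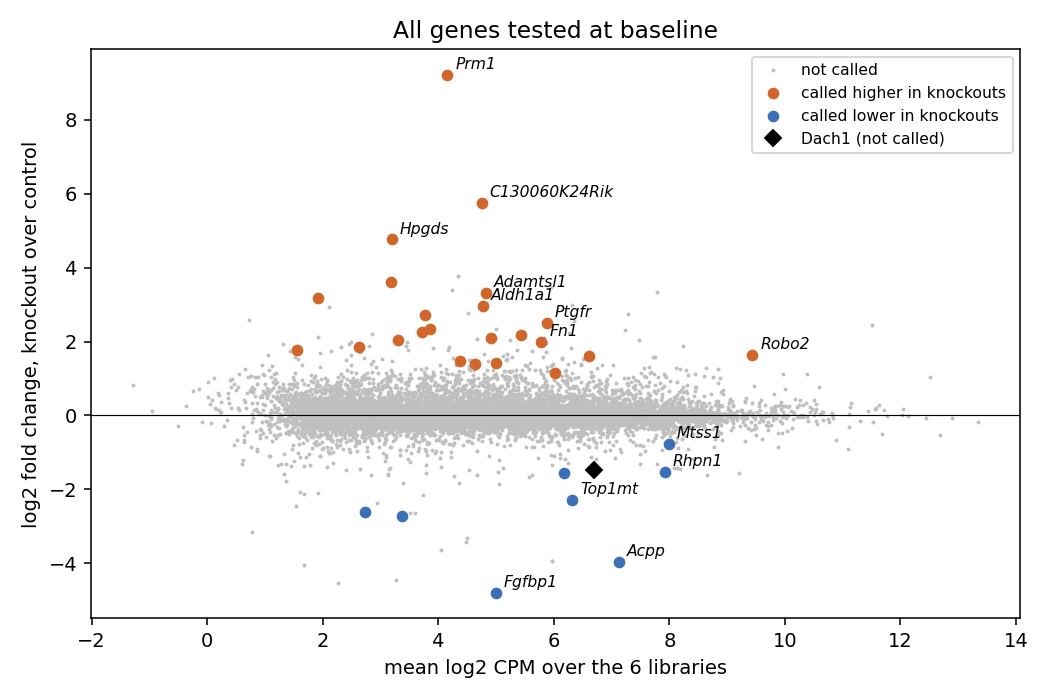
Log2 fold change of knockout over control against mean log2 CPM over the 6 baseline libraries, 1 point per gene tested (13475 genes). Orange points are the 23 genes called higher, blue points the 8 genes called lower, and the black diamond is Dach1, which was not called.

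The promoters of the genes with the largest changes are printed so that they can be read beside the expression values. They are the 3 largest changes in each direction among called genes with a promoter window in RefSeq (GRCm38.p6), with Prm1 left out. Each window holds 300 bases, laid out as 250 before and 50 after a start site, and is given on the strand of the gene, 5′ to 3′. That site is not always the outer end of the gene. The whole Hpgds window lies inside the span of its gene (65117293 to 65144981), so it does not show the bases before that end. Capitals mark a match to one of 5 motifs, on either strand. The windows are those of C130060K24Rik (chr6:65381044-65381343, plus strand), Hpgds (chr6:65144681-65144980, minus strand), Fam26e (chr10:34096470-34096769, minus strand), Fgfbp1 (chr5:43981750-43982049, minus strand), Acpp (chr9:104337673-104337972, minus strand) and Mgat5b (chr11:116918613-116918912, plus strand). The first 3 genes were higher and the last 3 lower in knockouts. C130060K24Rik is a clone name that the rule for naming genes counts without naming, so it was singled out after its values were seen. RefSeq lists it as Qrfprl.
C130060K24Rik: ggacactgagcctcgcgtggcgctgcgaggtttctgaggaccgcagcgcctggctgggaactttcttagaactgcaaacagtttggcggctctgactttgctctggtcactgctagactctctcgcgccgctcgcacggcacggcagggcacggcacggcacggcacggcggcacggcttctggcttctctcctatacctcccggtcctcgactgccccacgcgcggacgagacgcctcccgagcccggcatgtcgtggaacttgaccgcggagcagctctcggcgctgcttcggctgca
Hpgds: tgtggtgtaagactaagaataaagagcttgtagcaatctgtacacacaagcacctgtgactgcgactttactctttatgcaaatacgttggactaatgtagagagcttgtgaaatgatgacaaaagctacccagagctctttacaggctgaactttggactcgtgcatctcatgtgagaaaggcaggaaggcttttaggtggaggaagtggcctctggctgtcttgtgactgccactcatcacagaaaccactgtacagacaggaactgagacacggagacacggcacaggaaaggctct
Fam26e: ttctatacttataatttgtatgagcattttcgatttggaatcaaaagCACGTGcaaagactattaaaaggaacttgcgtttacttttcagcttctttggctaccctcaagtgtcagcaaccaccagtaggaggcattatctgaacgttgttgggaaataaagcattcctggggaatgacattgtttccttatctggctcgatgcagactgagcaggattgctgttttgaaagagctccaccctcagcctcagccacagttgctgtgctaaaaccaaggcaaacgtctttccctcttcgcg
Fgfbp1: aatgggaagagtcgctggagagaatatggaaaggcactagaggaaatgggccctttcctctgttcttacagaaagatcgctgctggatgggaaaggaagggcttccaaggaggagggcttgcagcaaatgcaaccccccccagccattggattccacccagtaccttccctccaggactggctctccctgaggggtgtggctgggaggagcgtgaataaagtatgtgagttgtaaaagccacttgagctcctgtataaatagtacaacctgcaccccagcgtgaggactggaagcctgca
Acpp: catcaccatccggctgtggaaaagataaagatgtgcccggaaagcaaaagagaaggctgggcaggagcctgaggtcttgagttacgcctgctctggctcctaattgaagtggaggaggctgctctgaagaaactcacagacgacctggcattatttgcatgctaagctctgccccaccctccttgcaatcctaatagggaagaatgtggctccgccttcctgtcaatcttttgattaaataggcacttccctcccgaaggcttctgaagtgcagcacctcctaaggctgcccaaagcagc
Mgat5b: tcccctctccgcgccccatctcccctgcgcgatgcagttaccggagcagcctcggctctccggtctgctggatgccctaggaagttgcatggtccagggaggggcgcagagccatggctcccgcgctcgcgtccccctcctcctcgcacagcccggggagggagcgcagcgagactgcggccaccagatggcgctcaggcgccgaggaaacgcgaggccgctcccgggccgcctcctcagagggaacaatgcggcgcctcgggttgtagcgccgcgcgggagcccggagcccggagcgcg

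Base composition differed widely among these windows. G and C made up 66.3% of the C130060K24Rik window and 73.0% of that of Mgat5b, with 34 and 36 CpG dinucleotides. The other 4 windows had 43.7% to 53.3% G and C and 4 to 8 CpG. Windows were found for 24 of the 31 called genes, 20 higher and 4 lower. The E-box CACGTG was in 2 of the 20 (Fam26e and Robo2), against 8.09% of the 27025 genes with a window and 11.4% of those tested here. The AP-1 motif TGANTCA was in 2 of the 20 (Aldh1a1 and Il20ra), against 8.97% of all windows and 6.16% of those of tested genes. The start of the sine oculis factors' motif, TCAGGTT, was in 1 of the 20 (Il20ra), against 4.73% of all windows and 3.98% of those of tested genes. The forkhead motif TGTTTAC was in none of the 20, against 4.05% of all windows and 3.23% of those of tested genes. The homeodomain motif TAATTA was in none of the 20 either, against 6.12% of all windows and 3.57% of those of tested genes. None of the 5 motifs was in the 4 windows of lower genes, which says only that these letters are absent there.

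C130060K24Rik had the second largest log2 fold change of the called genes. It was at 0.911, 0.926 and 1.08 CPM in controls and at 47.0, 58.2 and 53.7 CPM in knockouts, and the log2 fold change came to 5.76 (SE 0.15, adjusted p = 0.000158). The gene was scarce in every control, and the knockouts were close to each other. Prm1 encodes protamine 1, which packs the DNA of spermatids and sperm, and had the largest change. It had 2, 0 and 2 counts in the controls and 743, 848 and 849 in the knockouts. The 0, in control replicate 2, was a blank value taken as 0 and not a listed count. The ratio over the 2 groups was 649 at equal depth with that blank as 0. Counting error alone gives it an exact 95% interval from 253 to 2384, which leaves out the uncertainty of the blank. The adjusted p was 0.00163. Of 11 genes of spermatids on the list drawn up for this comparison, 2 were measured. The other one, Crem, a transcription factor that is not limited to the testis, had a log2 fold change of 0.27. Every gene listed at baseline reached at least 14 counts in some library, and Prm1 did so only in knockouts. Spermatid genes that were not measured have no value here, so nothing can be said of their levels.

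Of the genes that rose, 2 were on the prostaglandin list and 1 on the retinoic acid list. Hpgds encodes a synthase of prostaglandin D2. It was at 0.607, 0.694 and 0.622 CPM in controls and at 15.3, 14.1 and 23.3 CPM in knockouts (log2 fold change 4.76, SE 0.27, adjusted p = 0.00344). Ptgfr, the receptor of prostaglandin F2 alpha, was at 17.9, 23.2 and 11.98 CPM in controls and at 86.7, 113 and 101 CPM in knockouts (2.50, SE 0.26, adjusted p = 0.0321). The lowest knockout exceeded the highest control for both genes, by a wider margin for Hpgds. They were the only members called by edgeR among 26 measured prostaglandin genes, whose median log2 fold change was 0.12 against 0.01 for all genes. DESeq2 called 2 further genes of this list lower. Ptger4, a receptor of prostaglandin E2, stood at -0.69 (SE 0.16, adjusted p = 0.322) with groups that did not overlap. Aldh1a1 makes retinoic acid from retinaldehyde. It was at 6.77, 5.79 and 6.09 CPM in controls and at 57.9, 36.0 and 51.7 CPM in knockouts (2.96, SE 0.20, adjusted p = 0.00900). It was the only edgeR call among 19 measured retinoic acid genes, with a list median of -0.01. DESeq2 called 3 higher, with Aldh1a1, and 1 lower. Rdh10, which makes retinaldehyde from retinol, had a log2 fold change of 1.22 (adjusted p = 0.256). Rarres1, named for its response to retinoids, had -1.61 (adjusted p = 0.134), and the groups of both these genes did not overlap.

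Among the other called enzymes, Lpcat4, which adds acyl chains to lysophospholipids, was at 17.7, 15.0 and 14.1 CPM in controls and at 68.1, 74.1 and 68.8 CPM in knockouts (2.17, SE 0.12, adjusted p = 0.00333). The 3 knockouts differed little from each other. Mboat2, another lysophospholipid acyltransferase, was at 8.94, 11.8 and 11.98 CPM in controls and at 32.1, 34.0 and 25.3 CPM in knockouts. The difference (1.48, SE 0.17) passed close to the threshold, at an adjusted p of 0.0489. Cyp27a1, the mitochondrial sterol 27-hydroxylase, was at 44.1, 35.3 and 41.7 CPM in controls and at 97.5, 89.2 and 82.3 CPM in knockouts (1.15, SE 0.12, adjusted p = 0.0343), with the groups well apart.

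Adamtsl1 encodes a secreted ADAMTS-like glycoprotein without protease activity. It was at 5.64, 5.29 and 4.68 CPM in controls and at 50.3, 48.3 and 56.4 CPM in knockouts, 3.31 on the log2 scale (SE 0.12, adjusted p = 0.000729). The spread within each group was small beside this difference. It was the only edgeR call among 23 measured ADAMTS and ADAMTS-like genes, whose median log2 fold change was 0.00. DESeq2 called 3 higher, with Adamtsl1, and 1 lower in that list. Fn1, fibronectin, was at 17.9, 23.8 and 24.4 CPM in controls and at 106, 68.9 and 89.2 CPM in knockouts (2.00, SE 0.21, adjusted p = 0.0321). It was the only edgeR call among 29 measured fibronectin and integrin genes, whose median was 0.01, and DESeq2 called 4 higher with Fn1. A further 3 genes of that list had non-overlapping groups and higher knockout values (with Fn1 4 of 29, beside 4.98% of all genes tested). Itga2, the alpha 2 chain of a collagen receptor, had 1.07 (adjusted p = 0.0682), Itga11, the chain of another collagen receptor, 3.39 (adjusted p = 0.128) and Npnt, the basement membrane ligand nephronectin, 0.76 (adjusted p = 0.256). Frem1, a basement membrane protein of the Fraser syndrome complex, was at 11.5, 10.0 and 12.5 CPM in controls and at 57.8, 52.5 and 35.4 CPM in knockouts (2.10, SE 0.21, adjusted p = 0.0321). Its relative Frem3 had 2.11 (SE 0.26, adjusted p = 0.0539) and so just missed the threshold. Igsf10, a secreted immunoglobulin superfamily protein, was lower in level, at 1.17 to 1.45 CPM in controls and 3.92 to 4.90 CPM in knockouts (1.76, adjusted p = 0.0404). None of the 24 measured basement membrane collagens and laminins was called in edgeR, and DESeq2 called 1 higher. In edgeR 3 of the 24 had an unadjusted p under 0.05, beside 6.94% of all genes tested. The one of smallest p was Col4a6, a type IV collagen chain, with 0.80 (SE 0.13, adjusted p = 0.128).

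Robo2 is a receptor of Slit ligands that podocytes express and that binds nephrin through an adaptor. It was at 384, 298 and 335 CPM in controls and at 1303, 912 and 927 CPM in knockouts (1.63, SE 0.19, adjusted p = 0.0489). The lowest knockout had over 2 times the highest control, and yet the call held in 1 of the 6 fits with a library left out. The other 11 measured Slit and Robo genes were not called in edgeR, and DESeq2 called 1 lower. Of these 11, 3 had lower knockout groups without overlap, as had 6.86% of all genes tested. They were Sdc1 (-0.57), Srgap1 (-0.47) and Gpc1 (-0.60), with adjusted p of 0.339, 0.397 and 0.611. Il20ra, a receptor subunit for cytokines of the interleukin 10 family, was at 0.477 to 0.887 CPM in controls and 5.53 to 7.33 CPM in knockouts (3.18, SE 0.28, adjusted p = 0.0186). Il1f9, an interleukin 1 family cytokine of epithelia, was at 2.32 to 2.89 and 8.68 to 10.3 CPM (1.86, SE 0.15, adjusted p = 0.0165). Gabrb1, a beta subunit of the GABA-A receptor, was at 2.74 to 4.60 and 18.6 to 26.7 CPM (2.73, SE 0.25, adjusted p = 0.0208). These 3 genes were scarce in control glomeruli and several times higher in each knockout. Gabra4, another subunit of that receptor, had 0.55 (adjusted p = 0.696), with non-overlapping groups.

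The remaining higher genes have less closely related products. Fam26e (now Calhm5, a channel-like membrane protein) was at 1.08 to 1.52 CPM in controls and 11.3 to 19.8 CPM in knockouts (3.62, SE 0.29, adjusted p = 0.0143). Txlnb, a member of the taxilin family known from muscle, had 2.34 (SE 0.24, adjusted p = 0.0321), and Parm1, a membrane mucin, had 2.25 (SE 0.17, adjusted p = 0.0132). Exph5, a Rab27 effector that acts in exosome and granule transport, had 2.04 (SE 0.23, adjusted p = 0.0408). Steap2, a metalloreductase, was at 40.7, 54.1 and 49.3 CPM in controls and at 122, 170 and 150 CPM in knockouts (1.62, SE 0.17, adjusted p = 0.0321). Olfr613, an odorant receptor gene, had 1.40 (SE 0.15, adjusted p = 0.0369). Odorant receptors are near-identical in part, so reads could be split between copies, and its value is uncertain for that reason. Every knockout lay above every control for each of these genes.

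The 8 lower genes included the most deeply reduced transcripts. Fgfbp1, a secreted protein that releases fibroblast growth factors from the matrix, was at 62.0, 43.9 and 79.4 CPM in controls and at 1.57, 3.79 and 1.27 CPM in knockouts. It fell by 4.80 on the log2 scale (SE 0.49, adjusted p = 0.0321). It was the only call among 24 measured genes of FGF ligands, receptors and feedback, whose median was -0.11. Spry1, a feedback inhibitor of receptor tyrosine kinases, had -0.63 (SE 0.26, adjusted p = 0.710) and non-overlapping groups. Acpp, an acid phosphatase first known from the prostate, was at 324, 196 and 268 CPM in controls and at 22.5, 14.8 and 12.7 CPM in knockouts (-3.98, SE 0.30, adjusted p = 0.0132). For both Fgfbp1 and Acpp even the highest knockout was far below the lowest control. Mgat5b, an N-acetylglucosaminyltransferase, was at 16.01, 14.5 and 22.97 CPM in controls and at 2.44, 2.40 and 3.17 CPM in knockouts (-2.74, SE 0.23, adjusted p = 0.0179). In the same list of 14 glycosyltransferases St3gal1, a sialyltransferase, had -0.67 (SE 0.11, adjusted p = 0.140), with lower values in all 3 knockouts. Top1mt, the mitochondrial type I topoisomerase, was at 157, 110 and 130 CPM in controls and at 24.9, 27.6 and 29.0 CPM in knockouts (-2.29, SE 0.16, adjusted p = 0.00900). The other 12 measured genes of mitochondrial DNA upkeep and transcription were not called. Their list median was -0.01, and Tfb1m, an rRNA methyltransferase, came next by p with -0.27 (adjusted p = 0.751). Fam78b had -2.62 (SE 0.27, adjusted p = 0.0321), and Metrnl, a secreted relative of meteorin, had -1.56 (SE 0.17, adjusted p = 0.0405).

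Both remaining lower genes act on the podocyte cytoskeleton. Rhpn1, rhophilin-1, is a protein that is enriched in podocytes and whose loss in mice harms the foot processes. It was at 355, 402 and 328 CPM in controls and at 113, 142 and 121 CPM in knockouts (-1.53, SE 0.13, adjusted p = 0.0179). Mtss1, which binds actin and curved membrane, was at 315, 322 and 321 CPM in controls and at 187, 193 and 182 CPM in knockouts (-0.77, SE 0.08, adjusted p = 0.0321). Its change was the smallest of the 31, and the values within each group were close together. No other of the 26 measured podocyte actin genes was called in edgeR, DESeq2 called 4 lower with these, and the list median was -0.04. Arhgap24, which inactivates Rac1 in podocytes, had -0.87 (SE 0.16, adjusted p = 0.176), and Synpo, synaptopodin, had -0.54 (SE 0.13, adjusted p = 0.345), each with non-overlapping groups.

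**Figure D2:**
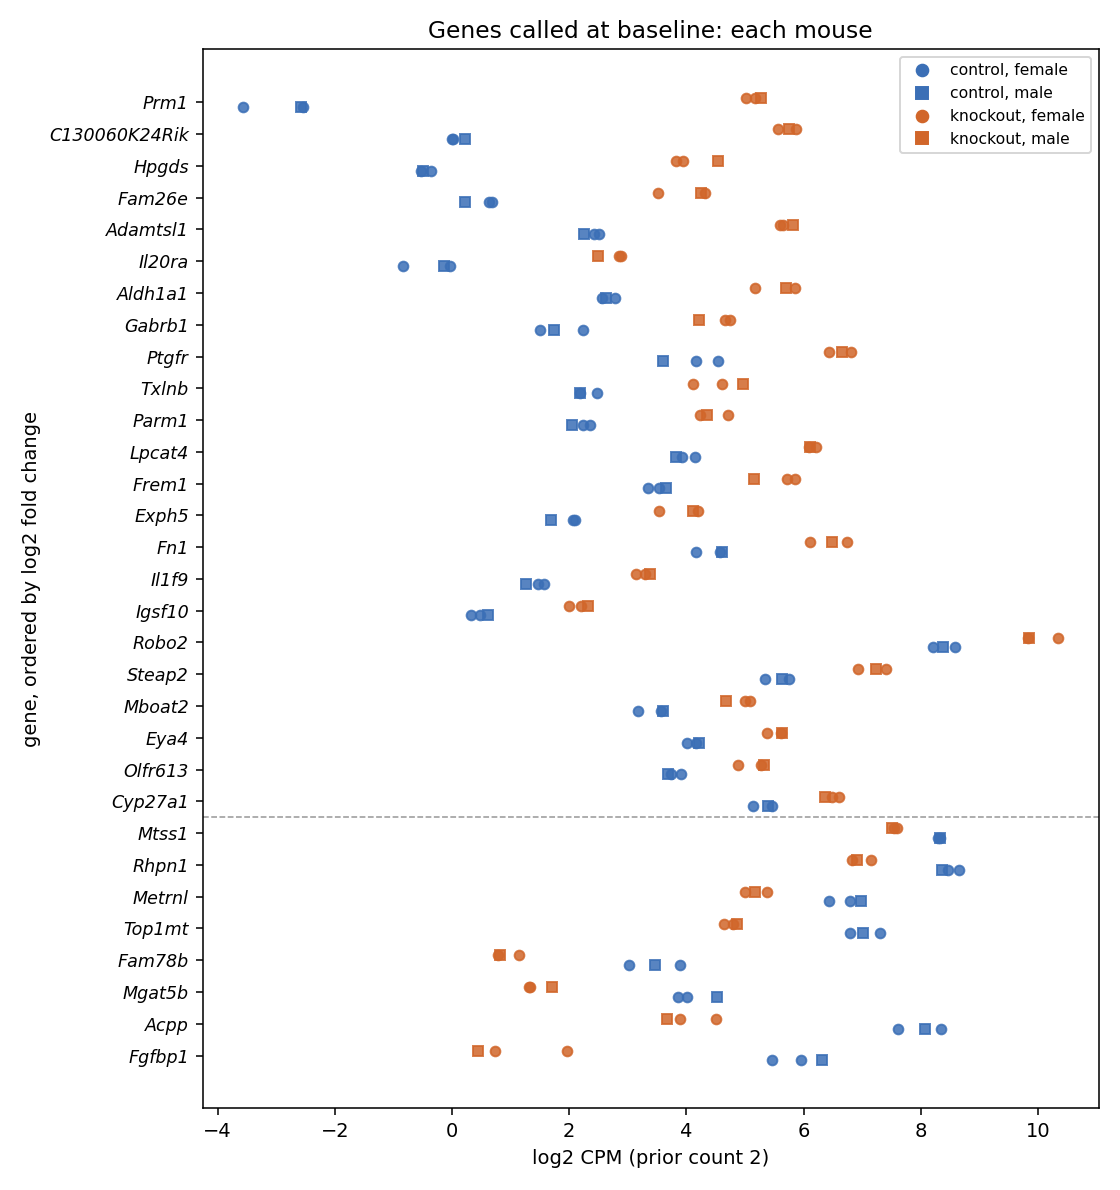
Log2 CPM of each of the 31 called genes in each mouse, ordered by log2 fold change, with controls in blue, knockouts in orange, circles for females and squares for males by Xist and Ddx3y. The 3 knockouts and the 3 controls do not overlap for any of the genes, which lie below the dashed line where knockouts were lower.

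Some genes missed the threshold narrowly. Glcci1, named for its induction by glucocorticoids, was at 168, 152 and 178 CPM in controls and at 100, 94.6 and 92.3 CPM in knockouts (-0.79, SE 0.09, adjusted p = 0.0501). Dock11, an activator of Cdc42, had 0.83 (adjusted p = 0.0534). Efemp1, the extracellular matrix protein fibulin-3, was at 34.7, 23.6 and 60.7 CPM in controls and at 568, 346 and 296 CPM in knockouts (3.35, SE 0.44, adjusted p = 0.0682). Arhgap20, a GTPase-activating protein, was at 1.74, 3.05 and 3.52 CPM against 56.5, 19.5 and 37.7 CPM (3.77, SE 0.48, adjusted p = 0.0665). The changes of Efemp1 and Arhgap20 were about as large as those of Fam26e and Adamtsl1, but their values were more spread among knockouts. Among the 20 genes next to the threshold, values lower in knockouts were seen for the matrix protein gene Postn (-0.94), the anion transporter gene Slc26a7 (-2.65), the growth factor gene Gdf5 (-2.14), the connexin gene Gja3 (-1.65) and Spon1, which encodes a secreted spondin (-1.68), at adjusted p of 0.0682 to 0.0783.

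The called genes were spread over 14 chromosomes, with 2 pairs of called genes less than 1000 kb apart. Top1mt (chromosome 15, 75657033 to 75678800) and Rhpn1 (75704246 to 75714419) are separated by 25.4 kb, and both were lower. The 2 measured genes on the near side of Top1mt, Zfp41 and Gpihbp1, had log2 fold changes of -0.13 and 0.09, and Zc3h3 beyond Rhpn1 had -0.17, with adjusted p from 0.802 to 0.978. The groups of Zc3h3 did not overlap, with lower knockouts, as in 6.86% of all genes tested, while those of Zfp41 and Gpihbp1 overlapped. Of 50 measured genes within 1000 kb of Top1mt, Rhpn1 was the only one called in edgeR. DESeq2 called Scx lower as well (adjusted p = 0.00881), with a log2 fold change of -1.12 in edgeR and non-overlapping groups. Hpgds (chromosome 6, 65117293 to 65144981) and C130060K24Rik (65381294 to 65458150) are separated by 236 kb, and both were higher. The only other measured gene within 1000 kb of Hpgds was Smarcad1, a chromatin remodeller whose end lies 1.23 kb away. Its log2 fold change was -0.19 (SE 0.12, adjusted p = 0.802). Hpgds and C130060K24Rik were thus far higher in knockouts next to a gene whose groups overlapped. Prm1 (chromosome 16, 10796332 to 10796823) had 13 measured neighbours within 1000 kb. None was called, and the largest of their log2 fold changes was 0.44 in size. Adamtsl1 had 9 such neighbours, none called, with changes of at most 0.48.

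**Figure D3:**
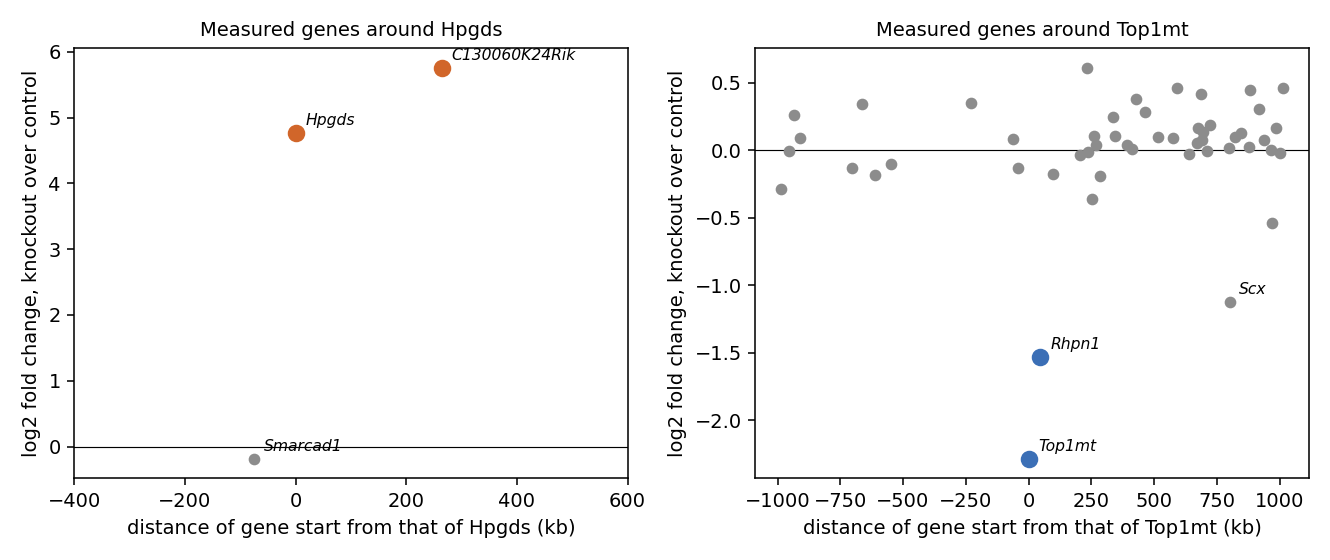
Log2 fold change of measured genes within 1000 kb of Hpgds (left) and of Top1mt (right) against the distance between gene starts in kb, with called genes as larger coloured points. C130060K24Rik (5.76) stands beside Hpgds (4.76), and Rhpn1 (-1.53) beside Top1mt (-2.29). Their other neighbours lie nearer 0, with Scx (-1.12, called by DESeq2 but not by edgeR) the farthest from it.

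The lists of podocyte genes had few calls. They were chosen with earlier results of these data known, so their counts describe these samples. None of 18 podocyte transcription factor genes was called in edgeR, and DESeq2 called 2 lower. In edgeR 6 of the 18 had an unadjusted p under 0.05, beside 6.94% of all genes tested. All 18 had negative log2 fold changes, with a median of -0.24, beside 47.6% of all genes. In 6 of the 18 the 3 knockouts lay below the 3 controls (6.86% of all genes tested did so). Foxd1, a forkhead factor, was at 55.1, 41.6 and 51.0 CPM in controls and at 27.6, 32.5 and 33.0 CPM in knockouts (-0.67, SE 0.14, adjusted p = 0.264). Foxc1 (-0.40) and Lmx1b (-0.63), both factors that podocytes depend on, also had non-overlapping groups (adjusted p = 0.403 and 0.460). With the tubule mean as a covariate 14 of the 18 stayed negative, with a median of -0.27, and without knockout replicate 3, the one richest in tubule RNA, 15 did, with a median of -0.21.

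Markers of differentiated podocytes had 1 call of 31 measured, the higher Robo2. Their median was -0.27, with 25 of 31 negative, and 12 had lower and 3 higher knockout groups without overlap (6.86% and 4.98% of all genes tested). DESeq2 called 6 lower and 2 higher. Cdkn1c, the cell cycle inhibitor p57 of mature podocytes, was at 969, 756 and 920 CPM in controls and at 387, 221 and 295 CPM in knockouts (-1.55, SE 0.23, adjusted p = 0.0937). Sema3g, a secreted semaphorin, had -0.90 (adjusted p = 0.311), and Npnt, noted above, stood in the other direction. None of 19 slit diaphragm genes was called in edgeR, and DESeq2 called 2 lower. In edgeR 4 of the 19 had an unadjusted p under 0.05, beside 6.94% of all genes tested. The median was -0.17, and 3 had lower groups without overlap (6.86% of all genes tested). Crb2, a polarity protein at the slit, was at 253, 206 and 270 CPM in controls and at 154, 154 and 149 CPM in knockouts (-0.67, SE 0.12, adjusted p = 0.167). Nck2, an adaptor that links nephrin to actin, had -0.55 (adjusted p = 0.175). In knockout replicate 3 tubule RNA was highest and the summed level of the 6 podocyte markers was lowest of the 6 libraries. With the tubule covariate and without that library, in this order, the medians were -0.29 and -0.24 for the differentiated markers and -0.09 and -0.09 for the slit diaphragm.

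**Figure D4:**
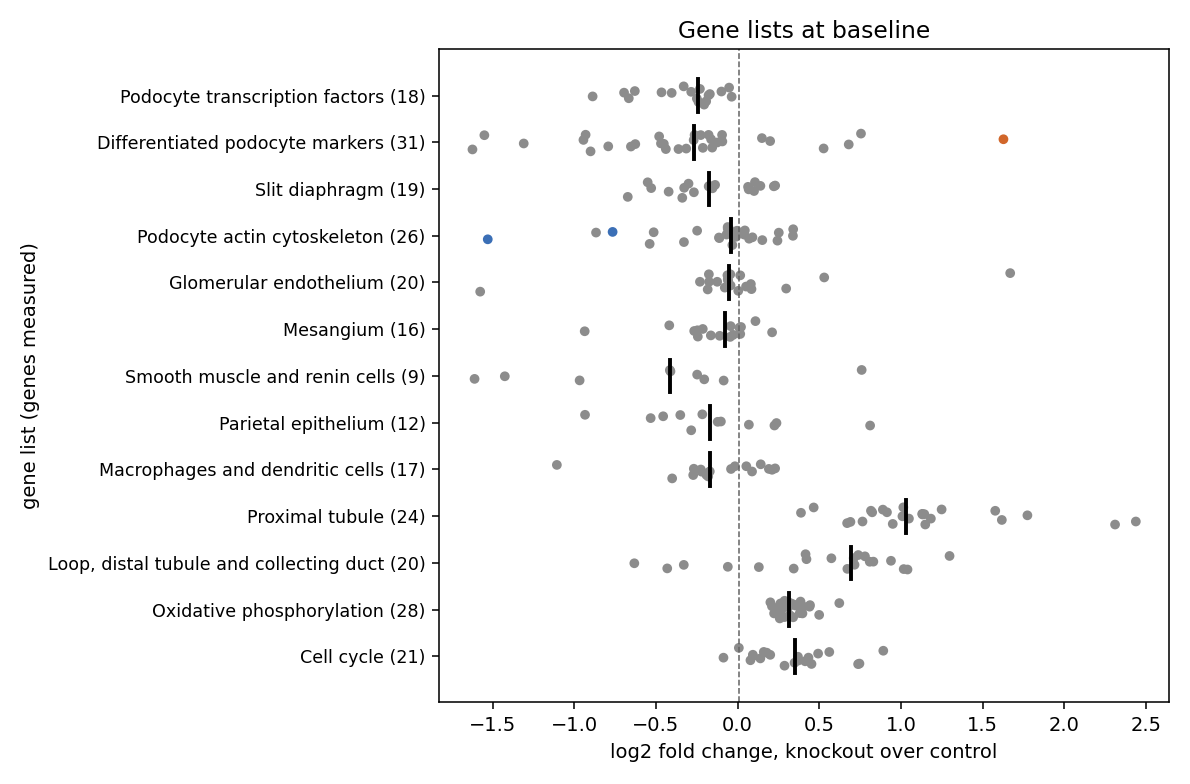
Log2 fold change of each measured gene in 13 gene lists, with the list median as a black bar, the median of all genes as a dashed line, and called genes in orange (higher) and blue (lower). The podocyte transcription factors lie at or below 0, and the proximal tubule genes all lie above it without any call.

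In edgeR no gene was called on the lists of other glomerular and kidney cells. At an unadjusted p under 0.05 were 4 genes of smooth muscle and renin cells, 2 of glomerular endothelium, 1 of mesangium, 1 of parietal epithelium, 4 of the later tubule and none of the proximal tubule. Over all genes tested the share at that p was 6.94%, and the counts for endothelium, mesangium and parietal epithelium were near it. DESeq2 called 2 lower genes of smooth muscle and renin cells, 1 higher and 1 lower of endothelium, 1 lower of mesangium, 1 lower of parietal epithelium and none of either tubule list. The 9 measured genes of smooth muscle and renin cells had a median of -0.41, and 4 had lower knockout groups without overlap (6.86% of all genes tested). Ren1, renin, was at 263, 424 and 539 CPM in controls and at 111, 155 and 190 CPM in knockouts (-1.43, SE 0.31, adjusted p = 0.287). Rgs5, a regulator of G protein signalling in pericytes, had -0.97 (adjusted p = 0.483) and Acta2, smooth muscle actin, -0.41 (adjusted p = 0.679), and 1 of the 9 genes had a positive value. Medians were near that of all genes for glomerular endothelium (-0.05, 20 genes) and mesangium (-0.08, 16 genes), and -0.17 for parietal epithelium (12 genes). All 24 proximal tubule genes had positive values with a median of 1.03, which was 0.58 without knockout replicate 3. With the tubule covariate it was -0.003. That covariate is the mean of these same 24 genes, so a value near 0 was fixed in advance. The 28 genes of oxidative phosphorylation were all positive as well, with a median of 0.31, and this fell to 0.08 with the tubule covariate. The summed level of 17 macrophage and dendritic cell markers was 392 to 497 CPM in controls and 344 to 395 CPM in knockouts. Of 14 lymphocyte markers, 2 were measured.

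Cell cycle genes had no call among 21 measured by edgeR or DESeq2. In edgeR 6 of the 21 had an unadjusted p under 0.05, beside 6.94% of all genes tested. In all, 20 of them were positive, with a median of 0.35. In 7 of the 21 the knockouts lay above all controls (4.98% of all genes tested did so). Aurkb, a mitotic kinase, was at 1.30, 1.66 and 1.45 CPM in controls and at 3.14, 2.19 and 2.09 CPM in knockouts (0.75, SE 0.25, adjusted p = 0.653). Rrm2, a subunit of ribonucleotide reductase, had 0.49 (adjusted p = 0.668) and Mki67, a marker of cycling cells, 0.74 (adjusted p = 0.672), with overlapping groups for Mki67. The median was 0.39 without knockout replicate 3 and 0.31 with the tubule covariate. No gene was called in edgeR on the lists of VEGF and angiopoietin (17 genes), TGF-beta (22), BMP (21), Wnt (19) and Notch signalling (15), whose medians ran from -0.17 to -0.04. In this order 2, 2, 2, 4 and 2 genes had an unadjusted p under 0.05, beside 6.94% of all genes tested. DESeq2 called 1 lower BMP gene, 1 higher and 1 lower Wnt gene, 1 higher Notch gene and none of the other two lists. Bmpr1b, a BMP receptor, had -1.42 (SE 0.26, adjusted p = 0.175) and Sost, the Wnt antagonist sclerostin, 1.67 (SE 0.22, adjusted p = 0.0682), both with non-overlapping groups.

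The 31 genes were then read in the 6 STZ libraries, which come from other mice and took no part in the baseline calls. In that arm 175 of 16291 genes (1.07%) were called by the same test. All 31 genes had the same direction there as at baseline, and 25 were called, 21 higher and 4 lower. The 6 that were not called after STZ were Mgat5b, Rhpn1, Il20ra, Fgfbp1, Mtss1 and Igsf10, at adjusted p of 0.0568 to 0.120. With 1 STZ library left out 14 to 22 of the 31 were called. The fewest were without STZ control replicate 2 (14) and without STZ knockout replicate 2 or 3 (16 each). Fgfbp1 had nearly the same value in both arms, -4.80 and -4.86, and its SE after STZ was 0.83. Dach1 itself had -1.41 after STZ (adjusted p = 0.00942).

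Most genes had the larger value after STZ (21 of the 31). The test of the difference, the interaction of genotype and STZ over all 12 libraries, called 1 of 13475 genes (0.00742%), and 31 genes with DESeq2. The 1 gene was Adamtsl1, at 3.31 at baseline and 4.84 after STZ, a difference of 1.52 (adjusted p of the interaction = 0.044). C130060K24Rik (5.76 and 7.32) and Parm1 (2.25 and 5.11) had adjusted p of 0.0974 and 0.0578 for theirs. Fn1 (2.00 and 2.97), Aldh1a1 (2.96 and 4.39), Lpcat4 (2.17 and 2.91) and Mboat2 (1.48 and 2.18) had an unadjusted p under 0.05 in edgeR that did not survive its adjustment. Of the 31 genes, DESeq2 called the interaction for Adamtsl1, C130060K24Rik, Lpcat4 and Parm1. Some genes near the baseline threshold had other values after STZ, among them Postn (-0.94 and 0.24), Gdf5 (-2.14 and 0.94) and Sost (1.67 and 0.40), and edgeR called the interaction for none of these 3, whereas DESeq2 called it for Postn and Gdf5.

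**Figure D5:**
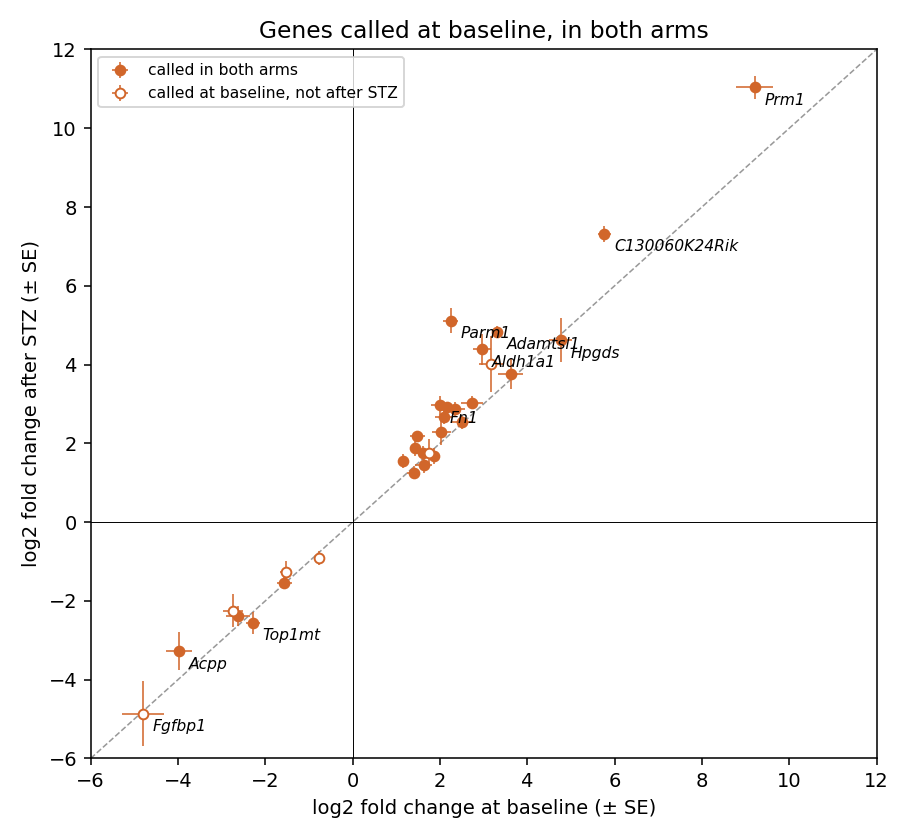
Log2 fold change after STZ against that at baseline for the 31 genes called at baseline, with SE bars, filled where the gene was also called after STZ and with a dashed line of equal values. All points lie in the 2 quadrants of equal sign, and Adamtsl1 and Parm1 lie above the line.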

How the data were processed

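The 6 baseline libraries (3 control and 3 knockout) gave the main comparison, and 6 STZ libraries were used for the genes called at baseline. The authors deposited estimated counts, unscaled, in 1 table of gene symbols for each library, with 10.59% to 11.54% of baseline values ending in 0.5. BWA and mm10 are named in the submitters' processing notes, with no version and no word on their use. How reads were counted, on which annotation and with which strand setting, is not given in the sources used here. Of the baseline values 8 were blank and taken as 0, among them that of Prm1 in control replicate 2.

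After rounding to whole numbers and filterByExpr, edgeR's quasi-likelihood test was run with TMM factors and Benjamini-Hochberg adjustment over all genes (edgeR 4.0.16, limma 3.58.1, R 4.3.3). A gene was called at an adjusted p under 0.05. Sentences that give a log2 fold change with an SE or adjusted p refer to this test, and the SE comes from the F statistic. Levels in CPM use the TMM factors, and log2 CPM carry a prior count of 2. Each edgeR p-value tests a group difference against the spread between mice, 3 per group, and that spread is moderated over all genes. Those of the interaction use all 12 libraries. DESeq2 1.42.0, limma-voom, other scalings and filters, covariates and single left-out libraries were alternatives. The fitting steps were checked on simulated counts.

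Named were Dach1, Nell2, Paxip1, every called gene except clone names, up to 20 genes next by p, up to 4 genes of smallest p in each of 40 lists (every measured member of lists with a call could be given), up to 8 genes per direction that DESeq2 alone called, and the 10 genes of highest CPM in controls. Dach2 is not in the tables used here. Neighbours of called genes were named by position, and Scx after its value was seen. The members and lists were chosen with earlier results of these data known. Positions and promoters are from RefSeq (GRCm38.p6), which matched 13448 of 13475 symbols (99.8%). Motifs were searched on both strands and can overlap. Some genes that the rule names are not reported here.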

Additional observations from a re-analysis of the deposited data

Results flagged for a closer look

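The effect of the knockout on Adamtsl1 was 1.52 larger after STZ than at baseline on the log2 scale, by a test of the difference itself over all 12 libraries. Controls and knockouts had 5.20 ± 0.483 and 51.7 ± 4.21 CPM at baseline (SD, n = 3). The 2 arms differ in depth, in the genes listed and in the labels of their controls, and the part of these differences in the value was not tested.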

How the results depend on the processing

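None of the 31 genes changed direction under the 21 alternatives where it was tested. Prm1 was not tested with at least 10 counts asked of every library. Of 650 values of single genes under an alternative, 425 stayed on the same side of the threshold, 225 lost the call and 0 reversed. The number called was 222 with DESeq2 (93 higher, 129 lower), 79 with the spread over all 12 libraries (40 and 39), 56 with tubule RNA as covariate (38 and 18), 10 with sex as covariate (7 and 3) and 60 with the leading number of the sample titles, 10 or 11, as a block (33 and 27). Scaling by totals alone gave 32 (22 and 10). Leaving out 1 library gave 4 to 51 calls, 4 to 32 higher and 0 to 19 lower. There were 5, 8 and 4 calls when control replicate 1, 2 or 3 was left out, and 51, 10 and 6 for the knockout replicates in the same order. Of alternatives chosen after seeing the data, the mean of immune markers as a covariate gave 9 calls (7 and 2). The 4 female libraries alone gave 0 higher and 0 lower in edgeR, with 355 genes at an unadjusted p under 0.05. The tubule mean and sex together gave 43. Fits with a library left out or with females alone hold fewer samples. For the other settings the cause was not tested. Dach1 passed with DESeq2 (-1.48) and with the spread over 12 libraries (-1.48). Of the 31 genes, 14 to 22 were called in the STZ arm with 1 STZ library left out. The interaction called 2 genes with totals alone (Adamtsl1 and Parm1) and 31 with DESeq2. No paired analysis was possible because the baseline labels give no replicate numbers, which were assigned in accession order. The leading number of the titles, fitted as a block above, is shared by libraries of both genotypes, and the labels do not say what it marks. With 3 mice per group, small changes could not be told from the spread between mice.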

Other observations

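DESeq2 alone called 191 further genes at baseline, and the examples here are among those of largest fold. Ogn, a small leucine-rich proteoglycan, was at 12.7, 20.7 and 37.8 CPM in controls and at 190, 112 and 116 CPM in knockouts (log2 fold change 2.55 and adjusted p 0.152 in edgeR, 2.68e-07 in DESeq2). Angptl7, a secreted angiopoietin-like protein, was at 4.08, 2.66 and 4.44 CPM against 23.2, 13.3 and 34.7 CPM (2.67, adjusted p 0.0967 and 1.34e-08). Calca, which encodes calcitonin and the peptide CGRP, was at 11.5, 3.28 and 14.8 CPM against 56.5, 29.8 and 36.8 CPM (2.06, adjusted p 0.431 and 0.00712). The 3 knockouts lay above the 3 controls for each of them. On the lower side were Nectin4, a cell adhesion molecule (-2.16), Cacna2d2, a calcium channel subunit (-1.87), Kcng2, a potassium channel subunit (-1.84), and Srrm4, a splicing regulator of neurons (-1.82).

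Immediate early genes, which respond within minutes to handling of tissue, separated libraries across genotypes. The mean log2 CPM of 18 of them was 6.97 in control replicate 1 and 7.11 in knockout replicate 1, the 2 libraries whose titles carry the leading number 10. It was 5.83 to 6.06 in the other 4 libraries. The list had a median log2 fold change of -0.11 between genotypes and no call.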
